A study of Mus musculus with 6 samples.

Results

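Mouse genes that detect foreign or misplaced nucleic acid, or pass that signal on, are described here: the cytosolic RNA sensors Ddx58 (RIG-I, now also named Rigi), Ifih1 (MDA5), Dhx58 (LGP2), Eif2ak2 (PKR) and Zbp1, the endosomal RNA sensors Tlr3 and Tlr7, the mitochondrial adaptor Mavs, the transcription factor Irf3, and Tmem173 (STING, now also named Sting1), the adaptor of cytosolic DNA sensing. They were taken by name, together with those 2 newer symbols, and make up 10 of the 34747 gene names on the array. They were measured by 15 probes, 1 for each of 6 genes and several for each of the other 4. Erythroid progenitors were isolated with the EasySep kit from mouse fetal liver at E-14.5, spun with virus and polybrene, and so transduced with a retrovirus that expressed a hairpin. The hairpin targeted either Exosc8, a subunit of the RNA exosome (shExosc8, n = 3), or luciferase, which mouse cells lack (shControl, n = 3). Both groups were then kept for 3 days in StemPro-34 medium with L-glutamine, antibiotics, monothioglycerol, dexamethasone, erythropoietin and conditioned medium from cells that make kit ligand, so retroviral infection, hairpin expression and culture were shared by both groups. The strain is not given in the labels. Total RNA was hybridised to 6 single-colour arrays.

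RIG-I and MDA5 are helicases that bind double-stranded RNA in the cytosol and then engage MAVS on the outer mitochondrial membrane. LGP2 lacks the signalling domains of the others and tunes them. MAVS recruits the kinase TBK1, which phosphorylates IRF3, and IRF3 with NF-kB turns on interferon genes. TLR3 and TLR7 read double-stranded and single-stranded RNA in endosomes and signal through TRIF and MyD88. PKR binds double-stranded RNA and phosphorylates the translation factor eIF2alpha, ZBP1 binds left-handed duplexes and engages RIPK3, and STING answers the second messenger made by cGAS on cytosolic DNA. The RNA exosome, a ring of subunits with associated nucleases, degrades many RNAs from their 3' ends. Several of the sensor genes are themselves induced by interferon.

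Promoter windows from RefSeq (GRCm38.p6) are described here for 6 of the 10 genes, each running from 250 bases before the annotated start to 50 after it. Both strands were searched for the core of the interferon-stimulated response element, GAAANNGAAA, and for the core of the STAT-binding GAS element, TTCNNNGAA. The first was present in the windows of Ddx58, Ifih1 and Eif2ak2, and in none of the windows of Mavs, Tlr3 and Irf3. Over all 32851 mouse windows it was present in 1131, or 3.44%. The GAS core was found in the Eif2ak2 window alone of the 6, against 8.3% of all windows. The windows with a match are shown because 1 of the 3 genes was called higher, 1 lower and 1 neither, as described below. Capitals mark the matches.
Ddx58 (chr4:40239776-40240075, minus strand): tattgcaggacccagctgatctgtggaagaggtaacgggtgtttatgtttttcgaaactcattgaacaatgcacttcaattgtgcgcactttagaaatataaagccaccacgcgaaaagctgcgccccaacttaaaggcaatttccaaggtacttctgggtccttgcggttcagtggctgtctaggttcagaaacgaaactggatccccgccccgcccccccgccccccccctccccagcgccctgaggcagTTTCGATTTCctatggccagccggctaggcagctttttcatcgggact
Ifih1 (chr2:62646206-62646505, minus strand): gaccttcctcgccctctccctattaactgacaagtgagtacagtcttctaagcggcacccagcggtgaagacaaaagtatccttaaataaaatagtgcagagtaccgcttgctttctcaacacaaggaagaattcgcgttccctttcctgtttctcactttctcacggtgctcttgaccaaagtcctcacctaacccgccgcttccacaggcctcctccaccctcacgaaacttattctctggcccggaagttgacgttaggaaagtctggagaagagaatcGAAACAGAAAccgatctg
Eif2ak2 (chr17:78882523-78882822, minus strand): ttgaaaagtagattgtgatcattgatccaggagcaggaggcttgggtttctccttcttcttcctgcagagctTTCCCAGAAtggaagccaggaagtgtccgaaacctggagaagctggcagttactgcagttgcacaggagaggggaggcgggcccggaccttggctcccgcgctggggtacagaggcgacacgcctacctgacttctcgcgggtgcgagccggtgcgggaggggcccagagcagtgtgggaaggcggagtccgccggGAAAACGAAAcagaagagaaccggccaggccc
Counted from 1 at the annotated start, the response element core began at base 3 in Ddx58 (reverse strand), at base 33 in Ifih1 and at base 19 in Eif2ak2, and the GAS core of Eif2ak2 began at base -178. A match gives the letters of the window and shows nothing about binding.

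The Exosc8 probe checked the labels. Its scaled signal was 7158, 7080 and 10169 in shExosc8 replicates 1, 2 and 3, against 17440, 17323 and 18394 in the shControl replicates. Exosc8 RNA in shExosc8 cells was 45.3% of the shControl level (95% interval 34.3% to 59.7%; limma adjusted p = 0.00606). A scaled signal is the spot intensity after each array was divided by its own 75th percentile and brought to a common level, and is comparable between arrays for 1 probe, not between probes. On shControl replicate 2, 67.3% of the 59305 spots were flagged as clearly brighter than background, against 43.1% to 49.3% on each of the other 5 arrays. Correlations between arrays were 0.985 to 0.997 within groups and 0.953 to 0.978 between them. All arrays were on 1 slide, with the shExosc8 arrays in its second row and the shControl arrays in its first, so the effects of group and of slide row cannot be told apart. The labels do not give the animals or cultures behind the replicates, so the p-values below rest on sample-to-sample spread alone, and that spread may be technical.

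Of the 15 sensor probes, 9 from 8 genes were well above background on every array of at least 1 group and were tested. Tlr3 and Zbp1 had no such probe. Of these, 8 were above background on all 6 arrays. Among the 8, Ddx58 and Tmem173 were higher in shExosc8 cells, Eif2ak2 was lower, and the 5 for Ifih1, Dhx58, Mavs, Irf3 and Tlr7 did not pass an adjusted p of 0.05. The ninth, a dim Tlr7 probe, passed the filter only through the shExosc8 arrays, where it was higher, so it is described on its own and not counted with the 8. Over all 24836 probes tested, 14.7% were called higher and 13.1% lower, so calls in both directions were common on these arrays. The shares given for all probes include those that passed the filter through 1 group only. With only the 21615 probes above background on every array tested, 6950 were called, 3450 of them higher. All 3 shExosc8 arrays lay above all 3 shControl arrays for 4 of the 8 sensor probes and below them for 1, against 21.8% and 28.7% of all probes tested. That balance depends on the scaling: before it, 1 of the 8 lay above (Ddx58) and 3 below (Ifih1, Eif2ak2 and Irf3), against 9.29% and 58.7% of all probes. The median log2 fold change of the 8 was 0.27, against -0.07 over all probes above background on every array. With slide column as a block in the fit, none of the sensor calls passed (limma adjusted p = 0.10 for Ddx58, 0.087 for Eif2ak2 and 0.0897 for Tmem173). The log2 fold changes were then 1.49, -1.60 and 1.25. Only slide columns 2 and 3 held both groups, so that fit compares the groups on fewer arrays and has little precision. RNA was extracted from whole cultures, so a change in the number of cells of a type and a change in RNA per cell cannot be told apart.

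**Figure D1:**
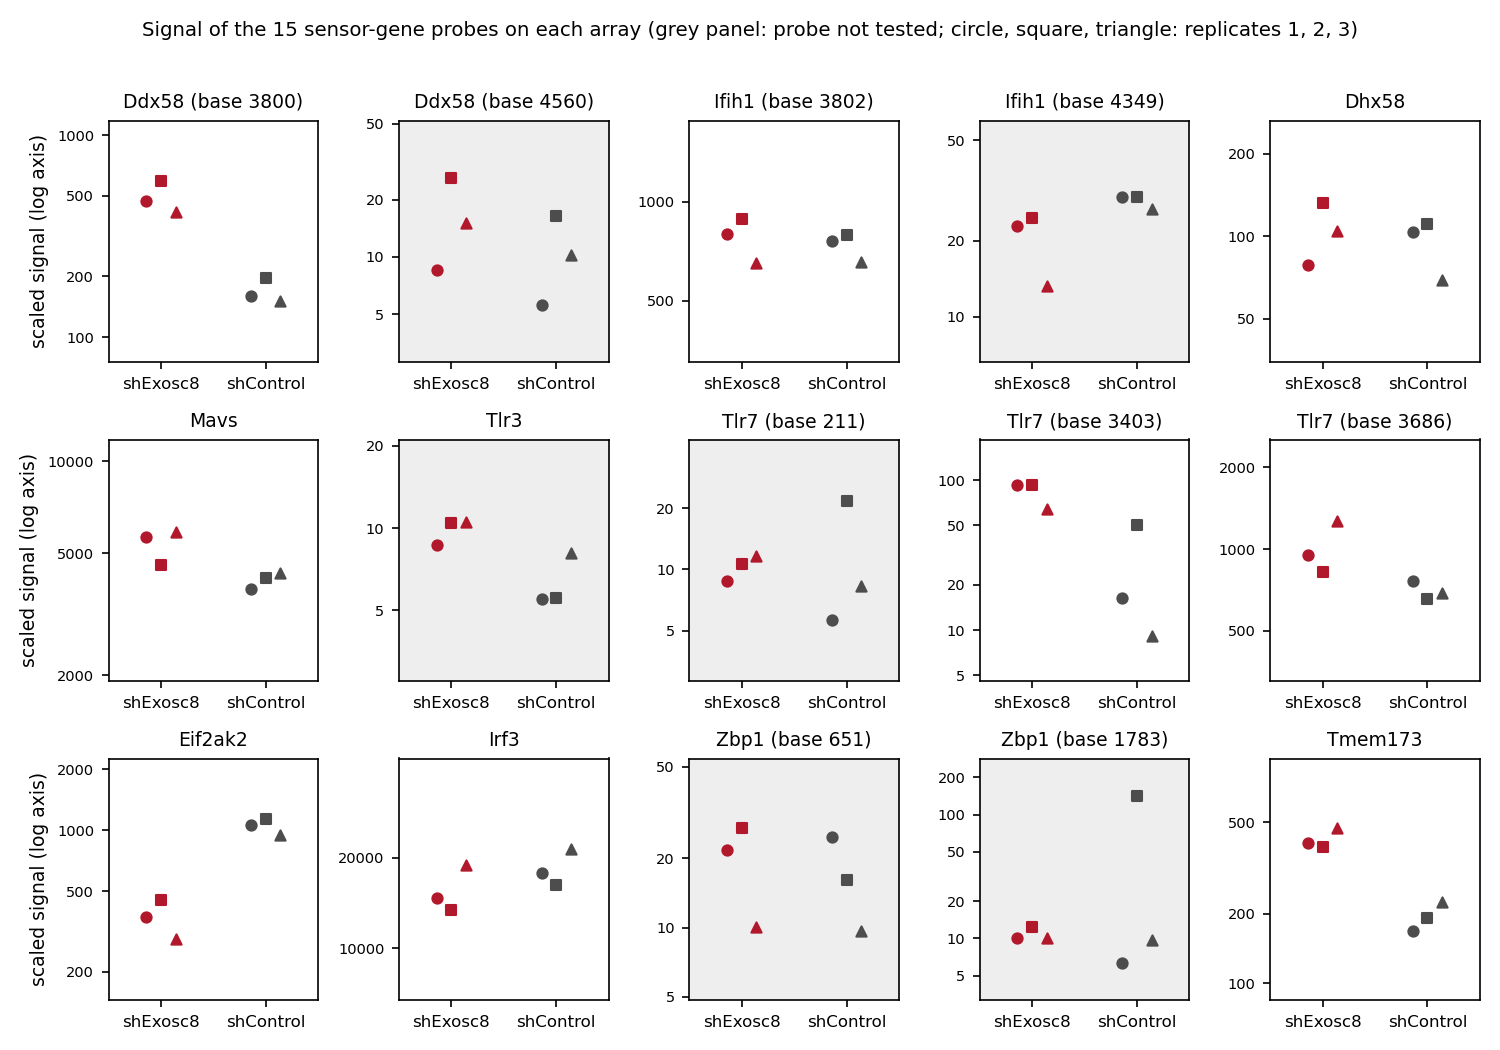
Scaled signal (log axis, 1 panel per probe) of the 15 sensor probes on each array, shExosc8 at left in red and shControl at right in grey, with circle, square and triangle for replicates 1, 2 and 3; grey panels are the 6 probes not tested, and the base is where the probe starts in its transcript. The groups stand apart for Ddx58 (base 3800), Tmem173 and Eif2ak2, and lie over each other for Ifih1 (base 3802), Dhx58 and Irf3.

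Of the 3 helicases, which share a fold and a ligand class, Ddx58 was called higher and Ifih1 and Dhx58 were not called. The Ddx58 probe that starts at base 3800 of its transcript (chr4:40151893-40151952 on mm9, minus strand) read 473, 590 and 415 in shExosc8 cells, against 159, 196 and 151 in shControl cells. The lowest shExosc8 array was above the highest shControl array by more than the range within either group. Ddx58 was 2.91-fold higher in shExosc8 cells (log2 fold change 1.54 ± 0.18, SE, n = 3 each; 95% interval 1.12 to 1.96; limma adjusted p = 0.00297). On the same arrays 1499 tested probes had a larger log2 rise. The call held whichever array was left out, with values from 1.40 to 1.66.

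Ifih1, by its probe at base 3802 (chr2:62435507-62435566, minus strand), read 798, 884 and 651 in shExosc8 cells, against 762, 793 and 657 in shControl cells. The groups overlapped throughout, and the log2 fold change was 0.07 ± 0.15 (95% interval -0.30 to 0.44; limma adjusted p = 0.746). That interval ends well short of the Ddx58 value. Dhx58 (chr11:100556271-100556330, minus strand) read 78.9, 133 and 105 in shExosc8 cells, against 103, 111 and 69.4 in shControl cells. Its groups also overlapped, with a log2 fold change of 0.15 ± 0.26 (95% interval -0.47 to 0.77; limma adjusted p = 0.67). Both small changes reverse sign under other scalings, to -0.43 for Ifih1 and -0.35 for Dhx58 without normalization between arrays.

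Ratios of 2 probes on the same array do not change when the whole array is divided by 1 value. Background correction and quantile normalization can change them. The pairs given, here and below, were chosen after the values were seen, so their permutation p-values are not tests of pairs fixed beforehand. The log2 ratio of Ddx58 to Ifih1, set to a mean of 0 in shControl cells, was 1.38, 1.55 and 1.48 in shExosc8 cells, against -0.13, 0.12 and 0.01 in shControl cells. The groups were far apart, and the ratio differed by 1.47 ± 0.09 (SE; exact permutation p = 0.1, two-sided, the smallest p that 3 against 3 allows). The ratio of Ddx58 to Dhx58 differed by 1.39 ± 0.23 with the same exact permutation p of 0.1, and its groups did not overlap.

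Both Ddx58 and Ifih1 had another probe farther along the transcript, 760 and 547 bases on. The farther Ddx58 probe (chr4:40151133-40151192) read 8.50, 26.0 and 15.1 in shExosc8 cells, against 5.60, 16.5 and 10.3 in shControl cells, and was well above background on 0 of 6 arrays, so no fold is given. The farther Ifih1 probe (chr2:62434960-62435019) read 22.9, 24.7 and 13.2 in shExosc8 cells, none of them well above background, against 29.7, 29.9 and 26.7 in shControl cells, 2 of them above it. Its groups did not overlap, shExosc8 being lower, but it did not pass the filter and was not tested. The nearer probes of both genes hold the polyadenylation hexamer AATAAA, which 10.1% of the 55681 probes on the array hold and 6 of 14 sensor probes searched. Stretches of 30 bases around it are shown, with the hexamer in capitals, for the probes that give these genes their values and for the brighter Tlr7 probe. They come from the array's own probe sequences.
Ddx58, base 3800: ctctagctattttcAATAAAggctcatgtt
Ifih1, base 3802: aactgcaagctacAATAAAtcatttcttcc
Tlr7, base 3686: agagttcaatgaAATAAAagcccagagaac
The farther Ddx58 probe also holds the hexamer and the farther Ifih1 probe does not. Whether probes lie in coding sequence or untranslated region was not determined here.

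Neither the adaptor below the helicases nor the transcription factor at the end of the pathway was called. Mavs (chr2:131073675-131073734, plus strand) read 5648, 4588 and 5887 in shExosc8 cells, against 3824, 4156 and 4310 in shControl cells. Every shExosc8 array was above every shControl array, yet replicate 2 of shExosc8 came close to replicate 3 of shControl. The log2 fold change was 0.39 ± 0.13 (95% interval 0.06 to 0.71) and the limma adjusted p was 0.0741. Mavs passed the threshold when shExosc8 replicate 2 was left out (0.50, limma adjusted p = 0.047), and its change was -0.11 without normalization between arrays.

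Irf3 (chr7:52257700-52257759, plus strand) read 14690, 13396 and 18858 in shExosc8 cells, against 17761, 16203 and 21454 in shControl cells. The groups overlapped, with a log2 fold change of -0.24 ± 0.18 and a limma adjusted p of 0.319. On the same arrays the log2 ratio of Mavs to Irf3 differed by 0.63 ± 0.14 between groups that did not overlap (exact permutation p = 0.1).

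**Figure D2:**
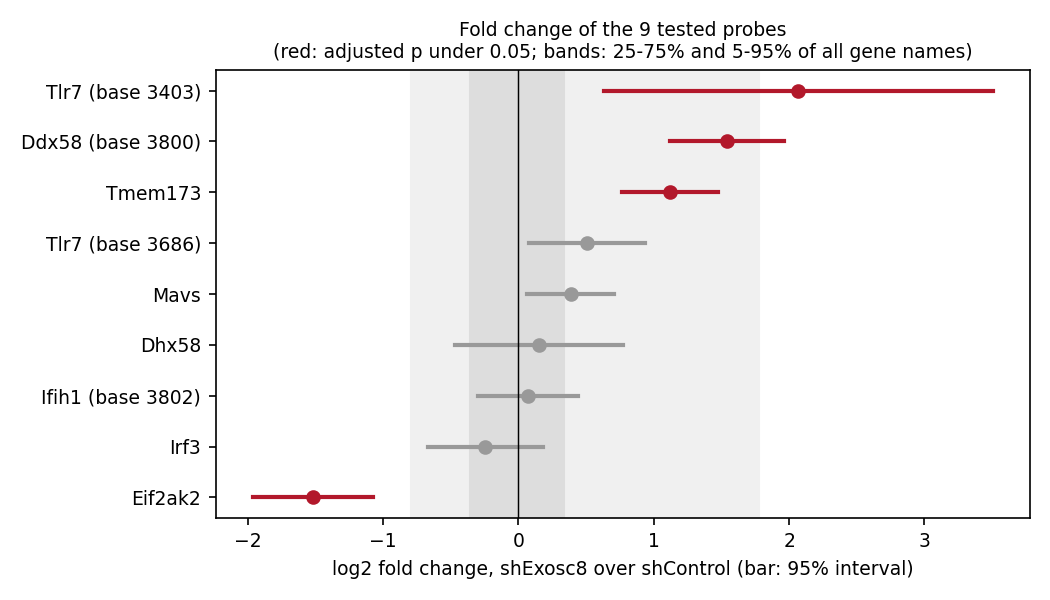
Log2 fold change (shExosc8 over shControl, horizontal axis) of the 9 tested sensor probes with 95% intervals, red where the adjusted p is under 0.05; the shaded bands hold the middle 50% and 90% of 18160 gene names. Ddx58 at 1.54 and Eif2ak2 at -1.52 lie on opposite sides of 0, and the interval of the dimmer Tlr7 probe is the widest.

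Of the endosomal receptors, Tlr3 was not well above background on any array, reading 8.64, 10.4 and 10.6 in shExosc8 cells, against 5.51, 5.56 and 8.14 in shControl cells. Tlr7 had 3 probes that gave unequal answers. The probe at base 3403 (chrX:163743146-163743205, minus strand) read 92.8, 93.1 and 64.6 in shExosc8 cells, all well above background, against 16.5, 50.3 and 9.15 in shControl cells, where only replicate 2 was. Its log2 fold change was 2.07 ± 0.60 (95% interval 0.63 to 3.50; limma adjusted p = 0.0458), a value drawn partly from dim control spots. The call was lost when any 1 array other than shControl replicate 2 was left out (1.98 without shExosc8 replicate 1, 1.98 without replicate 2, 2.24 without shExosc8 replicate 3, 1.94 and 1.52 without shControl replicates 1 and 3). It was kept without shControl replicate 2, at 2.75. With the background corrected by normexp the change was smaller, at 1.12 or 0.84 by the normalization that followed.

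The Tlr7 probe at base 3686 (chrX:163742863-163742922, minus strand) was bright on all arrays. It read 950, 824 and 1263 in shExosc8 cells, against 762, 654 and 692 in shControl cells. These groups did not overlap, but the change was small, 0.51 ± 0.18 (95% interval 0.08 to 0.94), with a limma adjusted p of 0.0764. The remaining Tlr7 probe, at base 211 of an Ensembl transcript, was well above background on 0 of 6 arrays.

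Eif2ak2 moved the other way. Its probe (chr17:79252168-79252227, minus strand) read 370, 452 and 289 in shExosc8 cells, against 1065, 1129 and 943 in shControl cells. All shExosc8 arrays lay far below all shControl arrays. Eif2ak2 RNA in shExosc8 cells was 35.0% of the shControl level (95% interval 25.7% to 47.6%; log2 fold change -1.52 ± 0.18, limma adjusted p = 0.00361). Only 143 of the tested probes had a larger log2 fall. The call held whichever array was left out, with values from -1.67 to -1.35.

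Set against each other on the same array, the log2 ratio of Ddx58 to Eif2ak2 was 2.99, 3.02 and 3.16 in shExosc8 cells, against -0.10, 0.11 and -0.01 in shControl cells. The ratio was 8.33-fold higher in shExosc8 cells (3.06 ± 0.08 on the log2 scale; exact permutation p = 0.1). Relative to Ifih1, Eif2ak2 was lower by a log2 difference of -1.59 ± 0.06, again with no overlap (exact permutation p = 0.1). The 3 windows printed above with a response element core thus belong to 1 gene that was higher, 1 that was not called and 1 that was lower. Across the array, 80 of 368 tested genes whose window holds the core were called higher (21.7%) and 52 lower (14.1%), against 1554 (15.8%) and 1474 (15%) of 9819 tested genes whose window does not.

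Zbp1 could not be tested. Its probe at base 651 read 21.9, 27.2 and 10.1 in shExosc8 cells, against 24.7, 16.1 and 9.66 in shControl cells, with 0 of 6 arrays well above background. The probe at base 1783 read 10.1, 12.3 and 10.1 in shExosc8 cells, against 6.34, 142 and 9.73 in shControl cells, and only shControl replicate 2 was above background. No direction can be read from either.

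Tmem173, the adaptor on the DNA side, was higher. It read 406, 392 and 472 in shExosc8 cells, against 169, 192 and 225 in shControl cells, and the groups did not overlap. Tmem173 was 2.17-fold higher in shExosc8 cells (log2 fold change 1.12 ± 0.15, 95% interval 0.76 to 1.48, limma adjusted p = 0.00463). Without normalization between arrays the change was 0.62 with a limma adjusted p of 0.072, and the groups then overlapped. The log2 ratio of Tmem173 to Irf3 on the same arrays differed by 1.36 ± 0.11, with no overlap (exact permutation p = 0.1).

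The authors' deposited table gives the same direction, with larger adjusted p-values, for the probes of Ddx58 (log2 fold change 1.19, adjusted p 0.0206), Eif2ak2 (-1.62, adjusted p 0.0259), Tmem173 (0.96, adjusted p 0.0622) and the dim Tlr7 probe (1.36, adjusted p 0.0657). The authors' deposited table has Dhx58 at -0.11 (adjusted p 0.808), of the opposite sign to the small change given here, and Exosc8 at -1.06 with an adjusted p of 0.073. That deposited table, the authors' own comparison, puts 1980 of 59305 features under an adjusted p of 0.05, and 1679 of those were higher in shExosc8 cells.

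Genes that act with the sensors were read from lists, with the probe of highest mean signal for each gene. Over all 18160 gene names tested in this way, 15.6% were called higher and 12.7% lower, and the median log2 fold change was -0.06. Among the adaptors and kinases between the sensors and their transcription factors, 3 of 13 above background on every array were higher and 2 lower, with a median of 0.06. Counts and medians of the lists below likewise cover only genes above background on all 6 arrays. The shares over all gene names also include genes that passed the filter through 1 group only. Tbkbp1, a TBK1 scaffold, rose 5.15-fold (2.36 ± 0.20, limma adjusted p = 0.00113). Ikbkg, the regulatory subunit of the IkB kinase, rose by 1.94 ± 0.33 and Tank, another TBK1 scaffold, by 0.92 ± 0.13 on the log2 scale. Ikbkb, the catalytic subunit, fell to 65.0% of the shControl level, and Tradd, an adaptor of TNF receptors that also joins MAVS, fell to 65.7%. These shares are near the background shares.

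The endosomal receptor partners had 3 of 11 higher and 1 lower, with a median of 0.04. Tlr13, the mouse sensor of bacterial ribosomal RNA, read 374, 346 and 310 in shExosc8 cells, against 141, 141 and 120 in shControl cells. It was 2.56-fold higher (1.35 ± 0.13, limma adjusted p = 0.00164). The kinase Map3k7 rose by 0.75 and the DNA sensor Tlr9 by 0.70, and the adaptor Myd88 fell by 0.45, all on the log2 scale. The calls of Tlr9 and Myd88 were each lost for 5 of the 6 arrays left out in turn, with ranges of 0.56 to 0.86 and -0.56 to -0.36, and that of Map3k7 for 2.

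PKR is 1 of 4 kinases of eIF2alpha, and its list, without Eif2ak2 itself, had 2 of 9 higher and 2 lower, with a median of -0.04. Of its sister kinases 1 was higher, 1 was lower and Eif2ak3 was not called (0.37 ± 0.18). Eif2ak1, the heme-regulated kinase of red cell precursors, read 9340, 8735 and 6967 in shExosc8 cells, against 3529, 3751 and 2600 in shControl cells. It was 2.55-fold higher (1.35 ± 0.19, limma adjusted p = 0.00554). Eif2ak4 (GCN2, which senses uncharged tRNA) read 1506, 1616 and 1553 in shExosc8 cells, against 2784, 2674 and 2752 in shControl cells, or 56.9% of the shControl level (limma adjusted p = 0.00333). Neither pair of groups overlapped. Ppp1r15a (GADD34), which directs the phosphatase of eIF2alpha, rose by 1.78 ± 0.29. Prkra (PACT), a protein activator of PKR, fell by 0.49 ± 0.11, a call lost for 4 of the 6 arrays left out.

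Among the DNA-sensing genes and the partners of ZBP1, 1 of 7 was higher and 2 lower, with a median of -0.47, below that of all genes. Ifi204, a DNA-binding member of the p200 family, read 228, 216 and 169 in shExosc8 cells, against 34.9, 37.7 and 30.7 in shControl cells, of which 2 were well above background (2.56 ± 0.16, limma adjusted p = 0.00046), and is not in that count. Mlkl, the membrane-breaking effector of necroptosis, rose by 1.33 ± 0.28. Ripk1 fell by 0.62 and Casp8, which restrains necroptosis, by 0.56. The calls of Ripk1 and Casp8 were each lost for 5 of 6 arrays left out and that of Mlkl for 4.

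The genes that hold sensing in check had 2 of 16 higher and 2 lower, with a median of -0.05. The ubiquitin editor Tnfaip3 (A20) rose by 1.47 ± 0.29 and Usp18, which removes ISG15 from proteins, by 1.32 ± 0.23, the call of Tnfaip3 being lost for 2 of the 6 arrays left out. The exonuclease Trex1 fell by 0.46 and Pcbp2, which helps to degrade MAVS, by 0.35, and both calls were lost for 5 of 6 arrays left out. The share called in each direction was close to that of all genes.

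**Figure D3:**
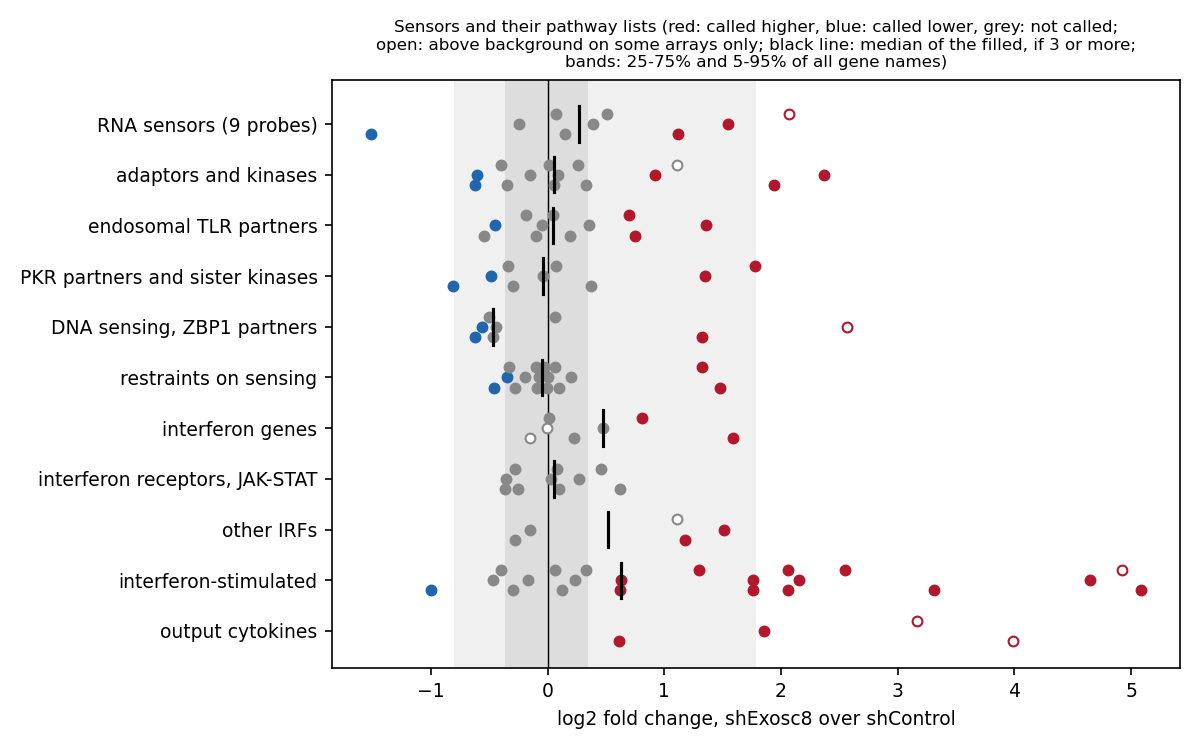
Log2 fold change (shExosc8 over shControl, horizontal axis) of the 9 sensor probes and of each tested gene of 10 pathway lists, red where called higher, blue where called lower and grey where not called, open where the gene was above background on some arrays only, with the median of the filled points as a black line where there are 3 or more; bands hold the middle 50% and 90% of 18160 gene names. Medians of the upstream lists lie between -0.47 and 0.06, and that of the interferon-stimulated genes lies at 0.63.

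At the output end of the pathway, probes for interferons themselves were mostly dim. Of 15 interferon genes on the array 5 were above background on every array, and 2 of them were higher and 0 lower by limma. Over the 7 tested, 3 were higher and 0 lower at an unadjusted limma p under 0.05. The 7 include genes above background on some arrays only. At that threshold at least 15.6% of all gene names were higher and at least 12.7% lower. The exact shares were not computed, so counts at an unadjusted p are not read as results about a list. Ifnb1 was well above background on 0 of 6 arrays. Ifnl3, an interferon lambda, read 1351, 1069 and 914 in shExosc8 cells, against 328, 471 and 312 in shControl cells (1.59 ± 0.22, limma adjusted p = 0.00515). Ifna1 rose by 0.80 ± 0.21, a call lost for 4 of 6 arrays left out, while Ifna5 (0.48) and Ifna14 (0.22) were not called. Interferon alpha genes are near copies of each other, so a probe may read more than 1 of them.

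The interferon receptors and the JAK-STAT genes that serve them had 0 of 10 called in either direction by limma, with a median of 0.05. At an unadjusted limma p under 0.05 there was 1 of 10, against at least 15.6% of all gene names higher and 12.7% lower. The smallest adjusted p was that of Jak1 (-0.36, limma adjusted p = 0.0582). Ifnar2 was at 0.62, Ifngr2 at 0.27 and Irf9 at -0.28. Of 7 other interferon regulatory factors read, 4 were above background on every array, with a median of 0.51. By limma 2 of those 4 were higher and 0 lower. Over the 5 tested, 3 were higher and 0 lower at an unadjusted limma p under 0.05. At least 15.6% of all gene names were higher and 12.7% lower at that threshold, so this count is not read as a result. Those 3 include Irf7, which was above background on 2 of 3 shControl arrays and passed the filter only through the shExosc8 arrays. Irf1 read 311, 327 and 260 in shExosc8 cells, against 125, 140 and 131 in shControl cells (1.18 ± 0.13, limma adjusted p = 0.00251). Irf8, a factor of the myeloid lineage, rose by 1.51 ± 0.29. Irf7, the interferon-inducible partner of Irf3, was at 1.11 ± 0.45 and was not called (limma adjusted p = 0.109). The call of Irf8 was lost for 2 of the 6 arrays left out.

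Of the 33 interferon-stimulated genes on the array, 22 passed the filter and the others were not tested. Of these 22, 21 were above background on every array. Among the 21, 12 were higher and 1 lower, with a median of 0.63. Oasl2 read 18058, 19676 and 12498 in shExosc8 cells, against 458, 779 and 317 in shControl cells. Isg15, a ubiquitin-like modifier, was 9.94-fold higher (3.31 ± 0.25, limma adjusted p = 0.000855), and the guanosine triphosphatase Igtp and the secreted protein Lgals3bp rose by 2.55 and 2.16. The 1 that fell was Bst2 (tetherin), to 49.9% of the shControl level (limma adjusted p = 0.00394). Of the cytokines and NF-kB targets that follow IRF3 and NF-kB, 2 of 9 were above background on every array and both were higher, Nfkbia by 1.85 and Ccl5 by 0.61. A further 2 passed the filter only through the shExosc8 arrays. Il6 was well above background in shExosc8 cells alone, so its limma p rests on shControl signals below background and is not given. It was at least 4.67-fold higher in shExosc8 cells. This bound sets the shExosc8 mean against the higher, on each shControl array, of the probe's own signal and the dimmest signal well above background. Cxcl10 was at 3.17 (limma adjusted p = 0.0141) with 1 of 3 shControl arrays above background. The call of Ccl5 was lost for 3 and that of Cxcl10 for 2 of the 6 arrays left out.

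Most markers of megakaryocytes and of neutrophils and monocytes were higher in the same arrays, and those of other blood cells less uniformly. Over all gene names 15.6% were called higher and 12.7% lower. The sums given compare arrays and weight each probe by its own brightness. They cover every marker of a list that is on the array, tested or not. The summed signal of the 9 tested megakaryocyte markers was 270600 to 366800 in shExosc8 cells, against 29130 to 40780 in shControl cells, and 9 of 9 were called higher. The 12 neutrophil and monocyte markers summed to 287000 to 374100, against 119700 to 138700 in shControl cells, and 10 of the 11 tested were called higher. Of 12 macrophage markers 4 were above background on every array and 3 of those were higher, with a sum of 3579 to 5273 in shExosc8 cells and 2075 to 2764 in shControl cells. Vcam1 and Mertk were well above background on none of the arrays.

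Tlr7 and Irf8 are used mainly by dendritic and other myeloid cells. Of 9 dendritic cell markers 4 were above background on every array and 2 of those were higher, Flt3 by 1.85 and Zbtb46 by 1.12, while Ccr9, Itgax and Cd209a were well above background on none of the arrays. Clec9a was above background on the shExosc8 arrays alone. The dendritic sum, 92450 to 119900 in shExosc8 cells and 89910 to 100700 in shControl cells, is mostly the signal of Siglech, which was not called (0.13). Of the 9 lymphoid markers 3 were above background on every array and 0 of those 3 were called by limma (sum 3080 to 3172 in shExosc8 cells, 2383 to 2613 in shControl cells). Over the 5 tested, which include markers above background on some arrays only, 3 had an unadjusted limma p under 0.05. At least 15.6% of all gene names were higher and 12.7% lower at that threshold, so this count is not read as a result. Of 8 hepatocyte markers 4 were above background on every array and 3 of those were higher (sum 1640 to 2774 in shExosc8 cells, 499 to 1036 in shControl cells). Of 8 endothelial and stromal markers 4 were tested, and 2 were higher and 1 lower (sum 7180 to 8289 in shExosc8 cells, 5442 to 5614 in shControl cells). The erythroid markers themselves summed to 1483000 to 2267000 in shExosc8 cells, against 1063000 to 1290000 in shControl cells, with 3 of 9 higher and 1 lower. The part of these cell types in the changes of Ddx58, Tmem173, Tlr7 and Eif2ak2 was not tested.

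**Figure D4:**
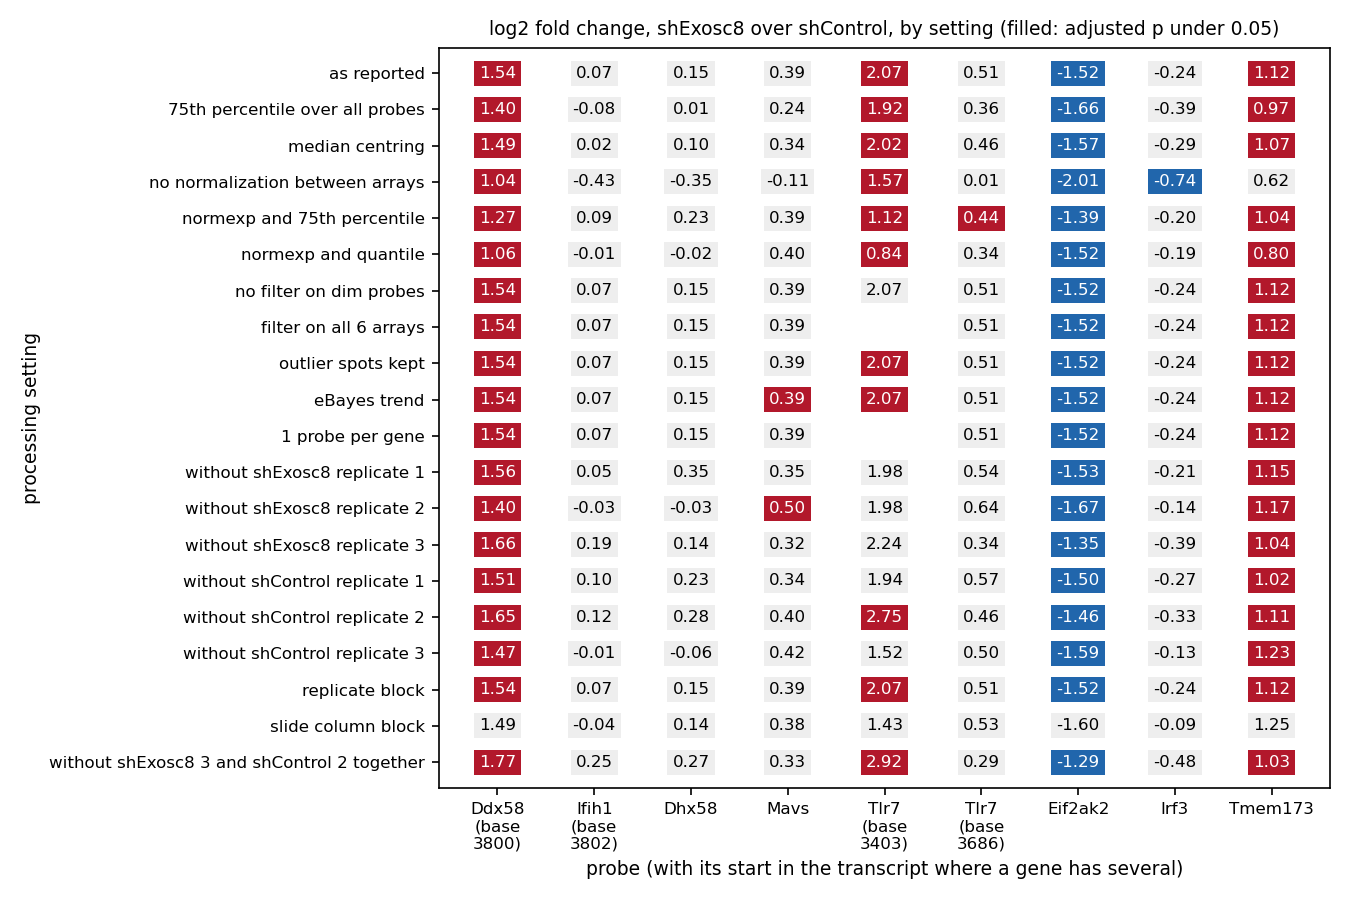
Log2 fold change (shExosc8 over shControl) of the 9 tested sensor probes, 1 column per probe, under each processing setting, 1 row per setting; filled boxes have an adjusted p under 0.05, red for higher and blue for lower, and a blank means that the setting left the probe out. The columns of Ddx58 and Eif2ak2 are filled in every row but that of the slide column block.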

How the data were processed

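Per the file headers, the deposited spot intensity was written by Agilent's Feature Extraction software (version 10.7.3.1), after background subtraction and detrending of each array, beside other per-spot values, flags for background, saturation and outliers. The authors' deposited table repeats those intensity values for 62976 features, with a difference of 0% on every array, and adds the authors' log2 fold changes and p-values. The submitters' processing notes name limma, and for the normalization behind those values the sources used here give nothing. Probe coordinates are on mm9, per the file headers.

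From the deposited intensity, 3671 control spots and outlier spots were left out, and spots of 1 probe were averaged. Of 55681 probes, 21 had no usable spot. Values were log2 signal minus each array's 75th percentile over the 21615 probes (38.8%) above background on all arrays. Probes above background on all arrays of 1 group were tested (24836) with limma 3.58.1 (lmFit, eBayes, two-sided) in R 4.3.3, by probe, calling Benjamini-Hochberg adjusted p-values under 0.05. No covariate was used. The number of arrays limits the precision. Names of 27495 probes came from RefSeq by accession and of 3953 by symbol, and 24212 kept the files' names. All sensor probes are named, and in each list the 4 tested genes with the smallest p. Tradd and Bst2, and the marker genes, were named after their values were seen. Eif2ak3 and Ifnb1 were also named outside that rule. The members, lists and tests were chosen with earlier results of these data known. A listed gene is not reported here.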

Additional observations from a re-analysis of the deposited data

How the results depend on the processing

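Of 6908 probes called, 52.8% were higher. Without normalization between arrays 12534 were called (16.6% higher, median log2 fold change of all probes -0.58 against -0.08), with the 75th percentile over all probes 9392 (35.4%, median -0.23) with normexp and the 75th percentile 6068 (67.8%, median 0.04) and with normexp and quantile 6989 (48.8%, median -0.11). Without the filter on dim probes 1708 were called, and with slide column as a block 408. Leaving out 1 array gave 2862 to 10730 (2862, 3741 and 10730 without shExosc8 replicates 1, 2 and 3; 2977, 4285 and 3703 without shControl replicates 1, 2 and 3). Of the 8 sensor probes above background on all 6 arrays 3 were called, against 14.7% higher and 13.1% lower over all probes tested. The dim Tlr7 probe, which passed the filter only through the shExosc8 arrays, was called as well. With the slide column block 0 of the sensor probes were called (limma, Ddx58 1.49, adjusted p = 0.10, Eif2ak2 -1.60, adjusted p = 0.087, Tmem173 1.25, adjusted p = 0.0897, Tlr7 1.43, adjusted p = 0.26). Within the slide columns that hold both groups, Ddx58 differed by 1.89 and 1.08, Eif2ak2 by -1.24 and -1.97, Tmem173 by 1.21 and 1.29, and the dim Tlr7 probe by 2.50 and 0.36. That Tlr7 call was also lost without the filter. Mavs was called with a trended prior, the bright Tlr7 probe with normexp and the 75th percentile (0.44), and Irf3 without normalization (-0.74). Reversed signs were those of Ifih1 (-0.076 with the percentile over all probes, -0.43 without normalization, -0.0075 with normexp and quantile, -0.035 with the slide column block, -0.029 to 0.19 with 1 array left out), Dhx58 (-0.35 without normalization, -0.018 with normexp and quantile, -0.056 to 0.35 with 1 array left out), Mavs (-0.11), Ifna5 (-0.021), Ifna14 (-0.28, and -0.027 with normexp and quantile) and Ifngr2 (-0.23), these last without normalization. The cause was not tested. Leaving out shExosc8 3 and shControl 2 together, chosen after seeing the data, gave 9268. With a replicate block 7101 of 24836 probes were called, among them the Ddx58, Eif2ak2, Tmem173 and dim Tlr7 probes. Deviations of same-numbered arrays correlated at 0.09, 0.24 and 0.34. Replicates 2 and 3 of shExosc8 correlated best with the same-numbered shControl array, and replicate 1 with shControl replicate 2 (0.16). These values do not settle a pairing and the labels do not give the animals or cultures. The numbers were therefore not taken to pair the samples. Probes near background, such as those of Tlr3 and Zbp1, limit what can be read.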
